A study of Mus musculus with 6 samples.

Results

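The genes described are 10 components of the NF-kB system: the subunits Nfkb1, Nfkb2, Rela and Relb, the cytoplasmic inhibitors Nfkbia, Nfkbib and Nfkbie, the nuclear inhibitor-like factors Nfkbiz and Bcl3, and the deubiquitinating enzyme gene Tnfaip3, which encodes A20. They were taken by name from a table of 31017 genes, and all 10 passed the filter on low counts. They were measured by poly(A) RNA sequencing in 4T1 cells, a mouse breast cancer line, in 2 groups of 3 libraries. In the libraries labelled FGFR2 KO, Cas9 had been nucleofected with guides against FGFR2, a cell surface receptor that binds fibroblast growth factors. In the control libraries, Cas9 had been nucleofected with control guides. Cells of both groups were then cultured as droplets of collagen I and freed from the gel with warm collagenase. The labels name collagen concentrations of 1.2 mg/ml and 2.4 mg/ml without saying which library had which, and give neither the time in culture nor whether the edited cells were a pool or a clone.

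NF-kB is a family of dimeric transcription factors held in the cytoplasm of resting cells by IkB proteins. Receptors for TNF, IL-1 and microbial products activate the IKK kinase complex, which marks IkB proteins for destruction and frees the dimers. Freed dimers switch on inflammatory genes together with Nfkbia and Tnfaip3, whose products end the response, so these transcripts are commonly read as feedback genes.

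The promoter windows of 5 members are shown because they hold, or lack, the DNA element through which NF-kB acts on its own genes. They run from 250 bases before to 50 bases after the annotated start, are read 5′ to 3′ on the strand of the gene, and come from RefSeq (build GRCm38.p6). Capitals mark matches to the kappaB consensus in its usual degenerate form, searched on both strands, with overlapping matches joined into 1 run.
Nfkbia, chr12:55492598-55492897, minus strand: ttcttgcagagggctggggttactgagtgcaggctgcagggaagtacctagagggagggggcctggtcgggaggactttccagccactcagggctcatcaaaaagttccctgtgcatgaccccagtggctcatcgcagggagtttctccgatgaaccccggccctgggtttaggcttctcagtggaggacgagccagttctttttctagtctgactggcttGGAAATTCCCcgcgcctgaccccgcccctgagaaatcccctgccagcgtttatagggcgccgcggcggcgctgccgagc
Nfkbie, chr17:45555450-45555749, plus strand: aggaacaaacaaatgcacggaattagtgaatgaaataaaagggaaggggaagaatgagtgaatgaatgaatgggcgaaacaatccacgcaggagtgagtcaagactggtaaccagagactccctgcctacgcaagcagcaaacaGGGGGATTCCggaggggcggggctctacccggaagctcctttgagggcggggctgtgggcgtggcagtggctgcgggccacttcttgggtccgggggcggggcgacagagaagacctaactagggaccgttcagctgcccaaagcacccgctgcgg
Nfkb2, chr19:46304487-46304786, plus strand: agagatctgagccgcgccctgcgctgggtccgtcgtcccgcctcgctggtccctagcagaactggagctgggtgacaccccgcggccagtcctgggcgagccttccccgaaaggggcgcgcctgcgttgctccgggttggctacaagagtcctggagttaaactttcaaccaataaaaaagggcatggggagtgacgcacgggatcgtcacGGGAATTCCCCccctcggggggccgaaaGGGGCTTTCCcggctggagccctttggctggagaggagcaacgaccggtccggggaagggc
Tnfaip3, chr10:19015361-19015660, minus strand: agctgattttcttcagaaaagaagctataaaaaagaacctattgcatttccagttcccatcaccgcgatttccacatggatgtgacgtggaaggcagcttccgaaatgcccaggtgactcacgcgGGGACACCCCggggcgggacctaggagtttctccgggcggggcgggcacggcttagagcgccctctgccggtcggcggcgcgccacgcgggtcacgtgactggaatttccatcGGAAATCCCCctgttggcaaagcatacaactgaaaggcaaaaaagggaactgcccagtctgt
Rela, chr19:5637291-5637590, plus strand: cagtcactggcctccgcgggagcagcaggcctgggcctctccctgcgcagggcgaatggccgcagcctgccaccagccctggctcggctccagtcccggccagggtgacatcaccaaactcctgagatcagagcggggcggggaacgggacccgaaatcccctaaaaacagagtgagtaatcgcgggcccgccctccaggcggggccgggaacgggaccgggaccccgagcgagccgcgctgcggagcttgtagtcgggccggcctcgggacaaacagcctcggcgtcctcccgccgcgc

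The Nfkbia window held 1 match, 29 to 20 bases before the start, and the Nfkbie window held 1, 106 to 97 bases before it. The Nfkb2 window, the first of 3 for that gene, held 3 matches within 39 bases of the start, of which an overlapping pair forms 1 run. The Tnfaip3 window shown held 2, of which the nearer lay 12 to 3 bases before the start, and a further window of that gene held none. Rela had none. Of the 7 members with a window in the RefSeq table, 5 held at least 1 match (Nfkb2, Nfkbia, Nfkbie, Bcl3 and Tnfaip3) and 2 did not (Rela and Nfkbib), while Nfkb1, Relb and Nfkbiz were not matched to a window. Among all 27025 genes with a window the share with a match was 5.14%. A match describes these letters only and shows no binding.

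The libraries held 18635037 to 20171309 counts in the FGFR2 KO group and 15531790 to 20447719 in the control group. Fgfr2 itself stood at 92.6 ± 10.4 CPM (counts as a rate per scaled library size) in KO libraries and 99.7 ± 5.82 CPM in control libraries (SD, n = 3 each), a log2 fold change of -0.11 (edgeR adjusted p = 0.113). The transcript count therefore does not check the KO label, and the groups are named here as labelled. The epithelial markers Epcam, Krt8 and Krt18 were abundant, whereas Krt5 had no counts. Of 7 tested epithelial markers 5 fell (71.4%) and 2 rose (28.6%), beside 27.5% and 27.1% of all tested genes. The rises were of Krt14, by 3.99 on the log2 scale, and Cdh1, by 0.25. The leukocyte markers Adgre1, Cd3e and Tyrobp had no counts, and Ptprc, which marks all leukocytes, had at most 2 counts in any library. The summed leukocyte list ran from 16.1 to 17.3 CPM in KO libraries and from 23.7 to 26.4 CPM in control libraries. Of its 12 genes 3 were tested, and Cd68, the 1 that fell, had 5.97 CPM in KO and 13.7 CPM in control libraries. Cd14, at 9.10 CPM in KO and 9.37 CPM in control libraries, and Csf1r, at 1.22 and 0.921 CPM, did not pass the test. The summed fibroblast list, mostly Pdgfra, ran from 39.7 to 45.4 CPM in KO libraries and from 36.3 to 38.2 CPM in control libraries, and the endothelial list had at most 0.856 CPM in KO and 0.516 CPM in control libraries. The part of these differences in the results was not tested. Bulk RNA cannot tell fewer cells that express a gene from less of its RNA in each cell.

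The question was how the transcripts of the NF-kB system differ between cells given FGFR2 guides and control guides in a collagen matrix. Of the 3 cytoplasmic inhibitors 2 fell, Nfkbia to 0.54 and Nfkbie to 0.82 of the control level, and the nuclear inhibitor-like factor Nfkbiz fell to 0.53 of it. Of the subunits, Rela was slightly higher and Nfkb1, Nfkb2 and Relb did not pass the test, nor did Nfkbib, Bcl3 or Tnfaip3. In all, 3 of 10 members fell and 1 rose at an edgeR adjusted p below 0.05, where the whole table had 27.5% of its 12158 tested genes down and 27.1% up. The 4 changed members (40.0%) were thus not more frequent than changed genes in general (54.6%), and 4 of 10 had groups that did not overlap, against 59.5% of tested genes. The members' median log2 fold change was -0.06, beside -0.01 over all tested genes.

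**Figure D1:**
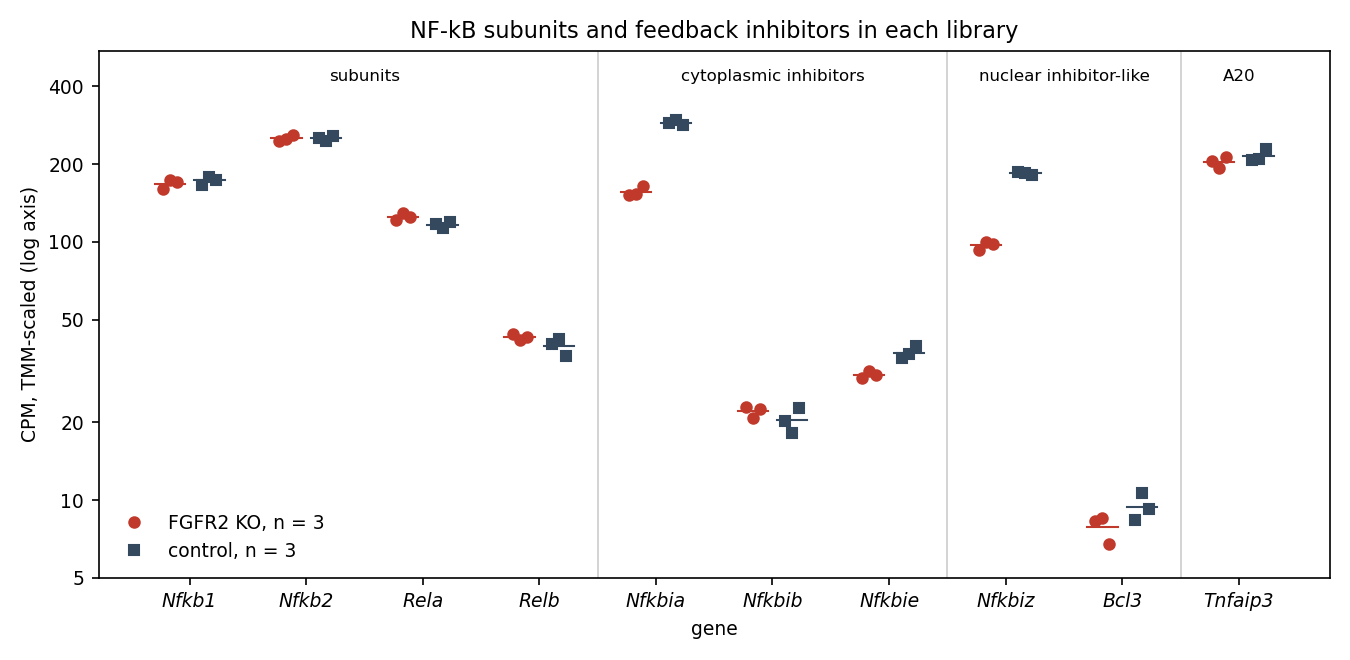
CPM of each of the 10 members (log axis) in the 3 FGFR2 KO libraries (circles) and the 3 control libraries (squares), with the group mean as a bar. Nfkbia and Nfkbiz are the members with wide gaps between groups, at 156 against 289 CPM and 97.4 against 185 CPM, while the subunits lie side by side.

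Among the subunits, Nfkb1 encodes p105, the precursor of p50 and itself an inhibitor (chromosome 3, 135584655 to 135691547, mm10). It had 160.5, 173.9 and 170.1 CPM in KO libraries 1 to 3, against 166.1, 178.6 and 174.1 CPM in control libraries 1 to 3. The groups overlapped, with a log2 fold change of -0.04 and a 95% interval of -0.12 to 0.04 (edgeR adjusted p = 0.426). Nfkb2, the p100 precursor of p52 (chromosome 19, 46304320 to 46312385), had 246.6, 251.1 and 259.3 CPM in KO libraries and 251.8, 246.2 and 257.4 CPM in control libraries. Its values were interleaved, and its log2 fold change of 0.00 had the narrowest interval of the 10 members, -0.07 to 0.08 (edgeR adjusted p = 0.941).

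Rela encodes p65, the main transactivating subunit of the canonical route (chromosome 19, 5637483 to 5648130). It stood at 121.7, 129.8 and 124.7 CPM in KO libraries, against 117.2, 113.0 and 119.9 CPM in control libraries. Each KO value lay above each control value, but the lowest KO and the highest control library were close. This was a difference of 0.10 in log2 fold change, with an SE of 0.043 (edgeR adjusted p = 0.0397). The call was lost with DESeq2 (adjusted p = 0.0522), with the replicate number as a block (edgeR adjusted p = 0.0597) and in 7 further alternatives. Relb, the subunit of the non-canonical route (chromosome 7, 19606217 to 19629438), had 43.9, 41.8 and 42.8 CPM in KO libraries and 40.2, 42.0 and 36.1 CPM in control libraries. Control replicate 2 lay inside the KO range, and the interval of its log2 fold change ran from -0.01 to 0.24 (edgeR adjusted p = 0.126).

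The cytoplasmic inhibitors did not move alike. Nfkbia encodes IkB alpha, the fast-turning inhibitor of canonical dimers (chromosome 12, 55489410 to 55492647). It had 151.4, 153.6 and 164.2 CPM in KO libraries, against 287.8, 296.5 and 283.3 CPM in control libraries. The groups were far apart relative to their spread, with means of 156 ± 6.83 CPM in KO and 289 ± 6.74 CPM in control libraries (SD, n = 3 each). Its log2 fold change of -0.89 had an SE of 0.039 (edgeR adjusted p = 6.01e-21), and 91.7% of tested genes had a smaller absolute change.

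Nfkbie encodes IkB epsilon, a slower feedback inhibitor (chromosome 17, 45555703 to 45563169). It had 29.6, 31.5 and 30.4 CPM in KO libraries and 35.5, 36.8 and 39.4 CPM in control libraries. The groups did not overlap, and Nfkbie fell by 0.29 on the log2 scale with an SE of 0.067 (edgeR adjusted p = 0.000493). Tested against a minimum fold change of 1.5, Nfkbie no longer passed (edgeR adjusted p = 1), whereas Nfkbia and Nfkbiz still did. Nfkbib encodes IkB beta, an inhibitor that is less responsive to NF-kB itself (chromosome 7, 28758251 to 28767512). It stood at 22.8, 20.8 and 22.6 CPM in KO libraries and 20.3, 18.3 and 22.7 CPM in control libraries, where control replicate 3 lay within the KO range. Its log2 fold change was 0.12 with an interval of -0.06 to 0.30 (edgeR adjusted p = 0.252). The intervals of Nfkbia (-0.97 to -0.81) and Nfkbib do not meet. The ratio of Nfkbia to Nfkbib CPM was 6.63, 7.37 and 7.26 in KO libraries, against 14.2, 16.2 and 12.5 in control libraries.

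**Figure D2:**
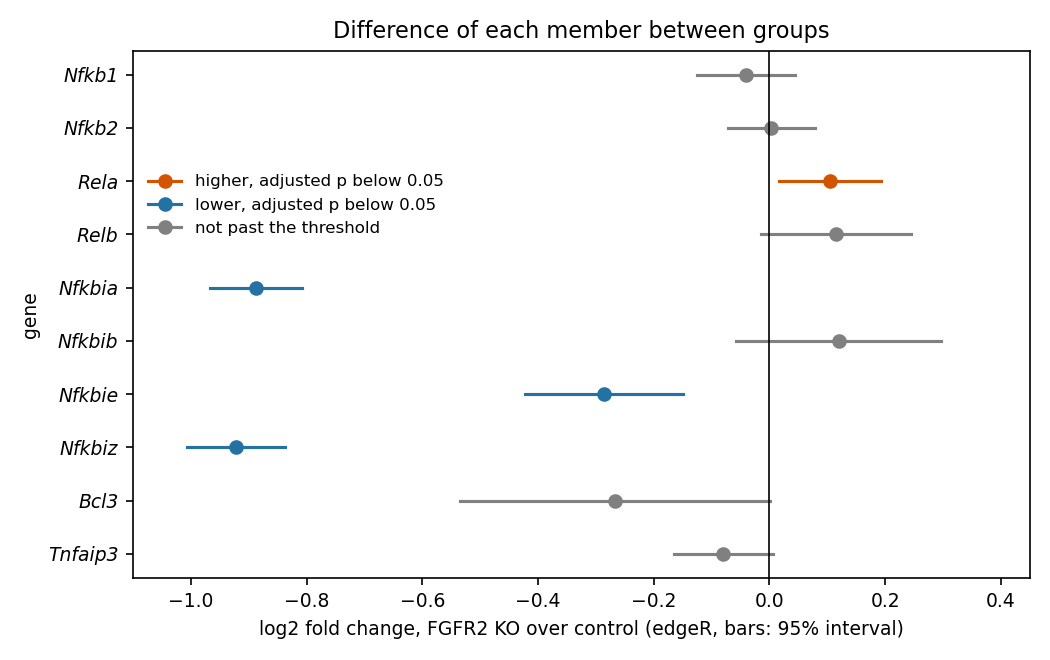
Log2 fold change of each member, FGFR2 KO over control, with its 95% interval from the edgeR fit (6 libraries). Nfkbia (-0.89), Nfkbiz (-0.92) and Nfkbie (-0.29) lie left of 0, Rela (0.10) lies slightly right of it, and the grey members span 0.

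Nfkbiz encodes IkB zeta, a nuclear protein that helps NF-kB switch on secondary inflammatory genes (chromosome 16, 55811375 to 55838899). It had 93.45, 100.2 and 98.6 CPM in KO libraries, against 186.7, 185.4 and 181.5 CPM in control libraries. These groups were as clearly separated as those of Nfkbia, and Nfkbiz fell by 0.92 on the log2 scale with an SE of 0.042 (edgeR adjusted p = 1.46e-20). Bcl3, a nuclear partner of p50 and p52 homodimers (chromosome 7, 19808462 to 19822770), was the rarest member. It had 8.29, 8.53 and 6.77 CPM in KO libraries and 8.39, 10.6 and 9.23 CPM in control libraries, which overlapped. With 137 to 216 counts per library its interval was the widest, from -0.53 to 0.00 on the log2 scale (edgeR adjusted p = 0.0861).

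Tnfaip3 encodes A20, which edits ubiquitin chains on signalling proteins upstream of IKK (chromosome 10, 19000910 to 19015657). It had 206.0, 193.3 and 212.7 CPM in KO libraries, against 207.8, 209.9 and 229.8 CPM in control libraries. The ranges overlapped, and the log2 fold change was -0.08 with an interval of -0.17 to 0.01 (edgeR adjusted p = 0.108). With upper quartile scaling or without KO replicate 3 it passed the test at -0.10 (edgeR adjusted p = 0.0405) and -0.11 (edgeR adjusted p = 0.0375). Nfkbia and Tnfaip3, the paired textbook feedback genes of the canonical route, thus gave separate intervals.

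Levels can be compared between genes only per length, and for this CPM were divided by the kilobases of annotated exon. On that scale Nfkbia was the highest member in both groups, at 97.2 ± 4.24 CPM per kb in KO and 180 ± 4.21 CPM per kb in control libraries (SD, n = 3 each). Nfkb2 followed, at 55.1 ± 1.41 CPM per kb in KO and 54.9 ± 1.23 CPM per kb in control libraries. Rela came next, at 40.8 ± 1.34 CPM per kb in KO and 38.0 ± 1.12 CPM per kb in control libraries, where its range overlapped with that of Nfkbiz (36.8 ± 0.534 CPM per kb). In KO libraries Nfkbiz, at 19.4 ± 0.700 CPM per kb, lay below Tnfaip3, at 28.2 ± 1.36 CPM per kb, while in control libraries Tnfaip3 was the lower at 29.9 ± 1.68 CPM per kb. Nfkbie, Relb and Nfkbib had means between 9.42 and 12.2 CPM per kb, with Nfkbib overlapping Nfkbie in KO libraries and Relb in control libraries, and Bcl3 was lowest at 3.18 ± 0.386 in KO and 3.81 ± 0.458 CPM per kb in control libraries. Nfkb1 had 13.9 CPM per kb in KO and 14.3 in control libraries when the long union of its annotated exons was used, but 40.5 and 41.7 when the longest transcript was used, so its place in the order is uncertain.

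Summed per length, the cytoplasmic inhibitors came to 114, 115 and 122 CPM per kb in KO libraries, against 199.8, 204.7 and 199.4 in control libraries. The 4 subunits together came to 118, 122 and 122 CPM per kb in KO libraries and 117, 116 and 119 in control libraries. The inhibitor to subunit transcript ratio was 0.971 ± 0.0285 in KO and 1.715 ± 0.0443 in control libraries (SD, n = 3 each), and the groups did not overlap. With the longest transcript as length it was 0.726 ± 0.0222 in KO and 1.268 ± 0.0265 in control libraries. The level of the ratio thus depends on the length used, and only its difference between groups can be read. Nfkbia made up 82.3% to 83.3% of the inhibitor sum in KO libraries and 88.3% to 90.0% in control libraries. The ratio was given no test, and it counts transcripts, not protein. Its subunit sum includes the precursor genes Nfkb1 and Nfkb2, and the Nfkb1 product p105 is itself an inhibitor. Nfkb2 was the largest term of that sum, at 55.05 CPM per kb in KO and 54.93 CPM per kb in control libraries. The ratio is therefore not a balance of all inhibitors against active NF-kB, and its difference came mostly from Nfkbia.

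**Figure D3:**
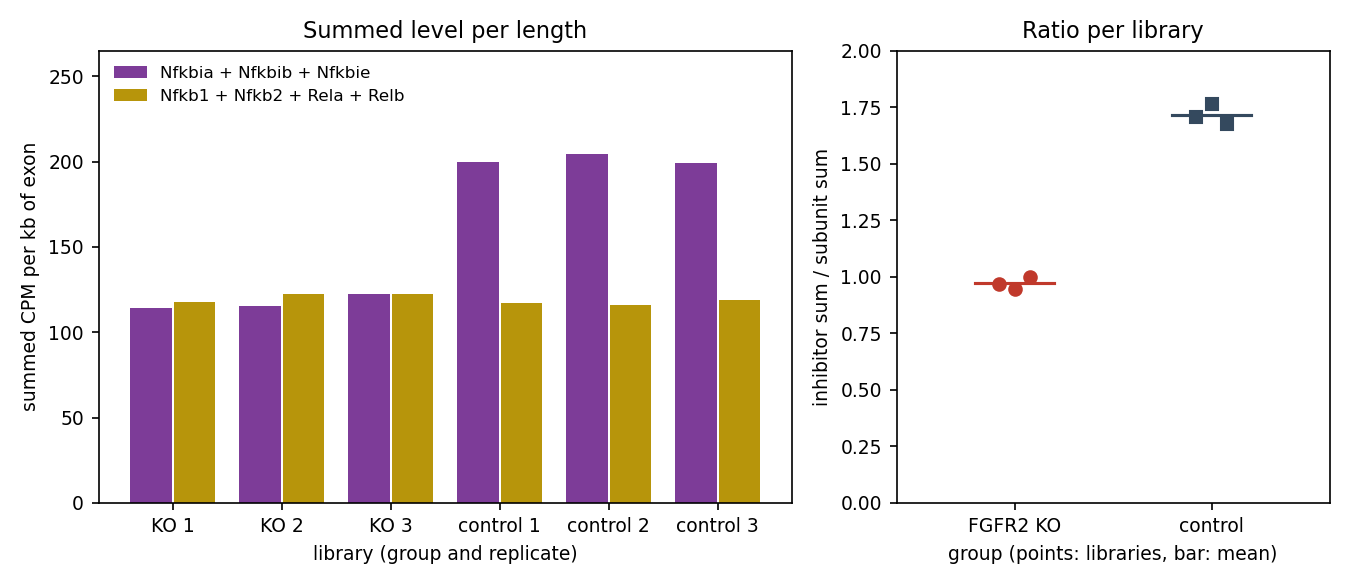
Left, CPM per kb of exon summed over Nfkbia, Nfkbib and Nfkbie and over Nfkb1, Nfkb2, Rela and Relb in each library; right, their ratio per library with the group mean. The inhibitor sum is 114 to 122 in KO and 199.4 to 204.7 in control libraries, while the subunit sum is 118 to 122 in KO and 116 to 119 in control libraries.

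The other genes of the system were described through lists from textbook knowledge, to be read against the 54.6% of all tested genes that changed (27.1% up, 27.5% down). In the rest of the Rel and IkB family, 2 of 5 genes rose and 1 fell, so that 60.0% changed, near that share. Rel, the c-Rel subunit common in lymphoid cells, had 28.6 ± 0.662 CPM in KO and 24.1 ± 2.49 CPM in control libraries (log2 fold change 0.25, edgeR adjusted p = 0.00763). Nkiras1, which encodes an IkB-binding small GTPase, rose by 0.60 to 4.72 CPM in KO libraries, against 3.08 CPM in control libraries, and Nfkbil1 fell by 0.17. Nfkbid, the remaining nuclear IkB gene, stood at 2.19 CPM in KO and 2.91 CPM in control libraries and did not pass (edgeR adjusted p = 0.141).

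Of 14 genes for IKK and related kinases, 2 rose (14.3%) and 5 fell (35.7%), so that 7 changed and the share lay near the 54.6% of all tested genes. The catalytic subunit gene Chuk (IKK alpha) had 74.95 ± 2.14 CPM in KO and 57.2 ± 1.09 CPM in control libraries, a log2 fold change of 0.39 (edgeR adjusted p = 4.07e-08). Ikbkb (IKK beta), at 83.0 CPM in KO and 77.6 CPM in control libraries, did not pass (edgeR adjusted p = 0.11), and the scaffold subunit Ikbkg (NEMO) fell by 0.18. Ikbke, an IKK-related kinase gene that is itself inducible, fell by 0.61 to 30.3 CPM in KO libraries, against 46.55 CPM in control libraries. Map3k14, which encodes the NIK kinase of the non-canonical route, fell by 0.16, with overlapping groups (edgeR adjusted p = 0.0478).

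Of 18 receptor-proximal adaptors and ubiquitin ligases, 3 rose (16.7%) and 6 fell (33.3%), so that 9 changed, again a share near the 54.6% of all tested genes. The adaptor Myd88 rose by 0.40 to 31.9 CPM in KO libraries, against 24.2 CPM in control libraries, and Traf3 and Malt1 rose by 0.19 and 0.31. Irak2, a kinase of the IL-1 and Toll-like receptor route, fell by 0.64, and Rbck1 and Rnf31 of the linear ubiquitin ligase fell by 0.26 and 0.27. Sharpin, also of that ligase, did not pass, with overlapping groups and a log2 fold change of -0.11 (edgeR adjusted p = 0.255). Of 11 genes that serve IkB degradation, 4 rose and 1 fell, so that 45.5% changed, beside 54.6% of all tested genes. The ubiquitin-like modifier gene Nedd8 and the ligase subunit gene Skp1a rose by 0.40 and 0.25. Btrc, a substrate-binding subunit that recognises phosphorylated IkB, fell by 0.37 to 30.0 CPM in KO libraries, against 38.8 CPM in control libraries. Its more abundant paralog Fbxw11 did not pass, at 133.5 CPM in KO and 129.6 CPM in control libraries (edgeR adjusted p = 0.4).

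Of 20 tested genes for other negative regulators, 8 fell and 0 rose (40.0% and 0.0%, beside 27.5% and 27.1% of all tested genes), with a median of -0.10. The share that changed, 40.0%, was below the 54.6% of all tested genes. In 6 of the 20 the groups did not overlap, against 59.5% of all tested genes. By edgeR 1 gene, Itch, was higher at an unadjusted p below 0.05 (edgeR adjusted p = 0.0536), and DESeq2 and limma-voom also called 0 higher. Zc3h12a, which encodes the ribonuclease Regnase-1, fell by 1.17 to 21.6 ± 1.63 CPM in KO libraries, against 48.5 ± 1.37 CPM in control libraries (edgeR adjusted p = 4.56e-17). Pdlim2, a ligase that ends p65 activity in the nucleus, fell by 0.95 to 29.8 CPM in KO libraries, against 57.6 CPM in control libraries. The deubiquitinase gene Otud7b fell by 0.31 and the A20 partner Rnf11 by 0.17, whereas Cyld and Otulin, which remove ubiquitin chains, did not pass, at log2 fold changes of 0.02 and 0.05.

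The receptors upstream of NF-kB went both ways, with 8 of 17 up (47.1%) and 6 down (35.3%), beside 27.1% and 27.5% of all tested genes. Tlr2, a receptor for bacterial lipopeptides, rose by 0.98 to 45.1 ± 2.17 CPM in KO libraries, against 22.8 ± 0.747 CPM in control libraries. Tnfrsf9, which encodes the inducible receptor 4-1BB, fell by 2.48 to 5.30 CPM in KO libraries, against 29.7 CPM in control libraries. The TNF receptor genes differed by small amounts, with Tnfrsf1a up by 0.14 and Tnfrsf1b down by 0.36.

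Target genes outside the 10 members were mostly lower. Of 50 textbook targets 45 were tested, 32 fell (71.1%) and 11 rose (24.4%), beside 27.5% and 27.1% of all tested genes, and the median log2 fold change was -0.70. Against a minimum fold change of 1.5, 21 fell and 7 rose, where 907 of all 12158 tested genes were called in either direction. The list was drawn up with earlier results known and shares Traf1, Birc3, Zc3h12a, Tnip1 and Cd40 with the lists above and Ier3 and Gadd45b with that of dissociation genes, so its direction is not independent evidence. The smallest adjusted p-values belonged to the growth factor gene Csf3, at 81.3 CPM in KO and 246.8 CPM in control libraries, and to Mmp9, Csf2 and Lcn2, which fell by 1.42, 3.66 and 2.28 on the log2 scale. Chosen after their values were seen, the cytokine Tnf had 1.23 ± 0.185 CPM in KO and 7.49 ± 1.20 CPM in control libraries, and complement C3 had 213 ± 2.08 CPM in KO and 454.5 ± 18.6 CPM in control libraries.

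The targets that rose were Saa3, Il6, Fas, Gadd45b, Ptgs2, Cd40, F3, Csf1, Sod2, Tapbp and Pdgfb. Ptgs2, the inducible prostaglandin synthase, had the highest CPM of these genes, at 838 ± 26.9 CPM in KO and 387 ± 11.8 CPM in control libraries, and the mitochondrial superoxide dismutase Sod2 had 87.2 ± 2.17 CPM in KO and 58.6 ± 3.03 CPM in control libraries. Saa3 and Il6 had the largest absolute log2 fold changes of all tested targets, beyond any of the falls. Saa3 rose by 5.68, with 413, 485 and 561 counts in KO libraries and 6, 16 and 4 in control libraries. Il6 rose by 4.55, with 70, 56 and 85 counts in KO libraries and 1, 7 and 0 in control libraries. The 17 tested cytokines, chemokines and growth factors, a subset formed after the values were seen, had 14 down (82.4%) and 3 up (17.6%), beside 27.5% and 27.1% of all tested genes. Of the 37 targets with a promoter window, 14 (37.8%) held a kappaB match, beside 5.14% of all genes with a window. This share describes the list and was not split by direction of change.

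**Figure D4:**
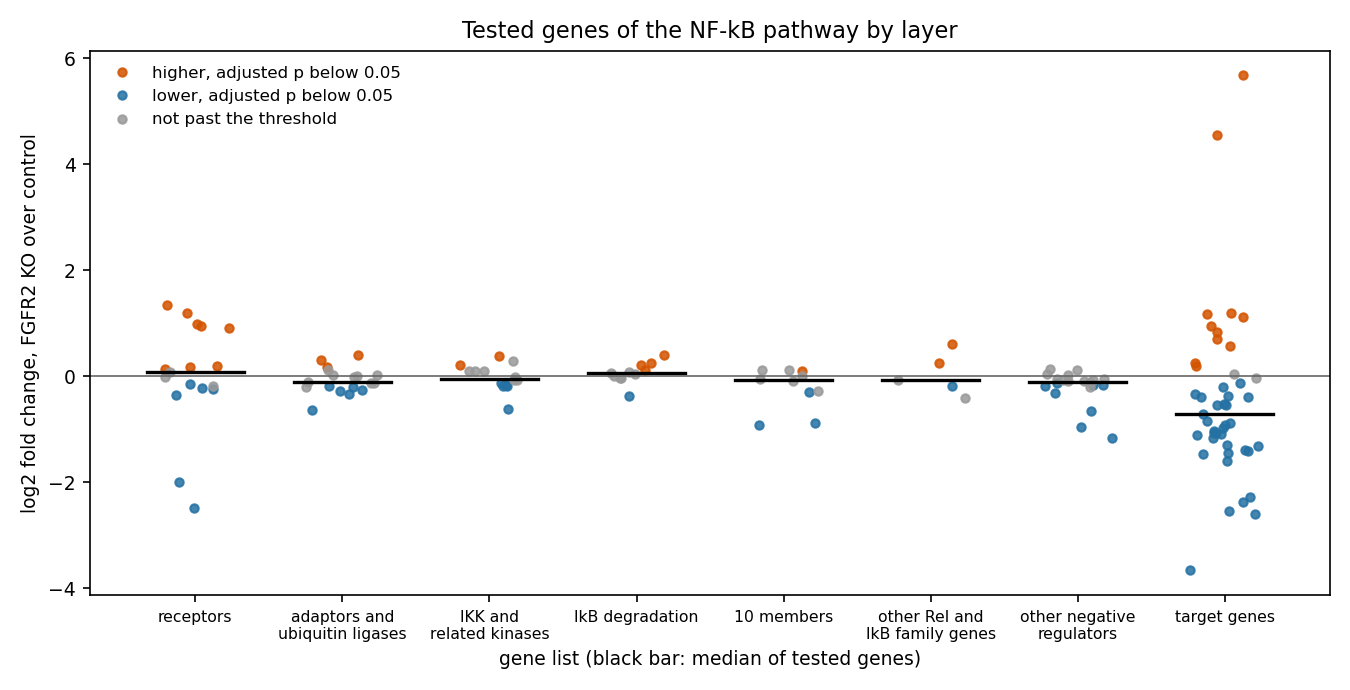
Log2 fold change (FGFR2 KO over control) of every tested gene in 8 lists from receptors to target genes, coloured by call, with the median as a black bar. The median lies between -0.11 and 0.09 for the 7 lists of pathway components and at -0.70 for the target genes.

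Several of these genes also respond to warm enzymatic release of cells, so a list of such genes is given beside them. Of its 17 tested members 10 rose (58.8%) and 7 fell (41.2%), so that all 17 changed, beside 54.6% of all tested genes. Egr1 and Ier3 fell by 1.31 and 0.87, while Atf3 and Gadd45b rose by 0.84 and 1.19. The summed list ran from 4890 to 5299 CPM in KO libraries and from 5511 to 5809 CPM in control libraries. Whether handling had a part in the lower Nfkbia and Nfkbiz was not tested.

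By profile over the 6 libraries, the genes most like Nfkbia among 7654 with a mean of at least 20 CPM included B3gnt3 and Bcl2. Their root mean square differences from Nfkbia were 0.0206 and 0.0287 on the log2 CPM scale, each gene centred on its own mean. B3gnt3, a glycosyltransferase gene, had 108 CPM in KO and 199 CPM in control libraries, and Bcl2, which encodes an inhibitor of apoptosis, had 38.0 CPM in KO and 68.7 CPM in control libraries. Nfkbiz was 16th in this order, at 0.0421. With 2 groups this measure mainly ranks genes by the size of the group difference.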

How the data were processed

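Poly(A) RNA libraries of 4T1 cells (3 FGFR2 KO, 3 control) were made with a stranded kit, per the labels' protocols. The authors deposited unnormalized whole-number read counts per gene symbol. FastQC 0.11.9, STAR 2.7.9a, featureCounts and R 4.1.1 are listed, with builds hg38 and mm10, per the submitters' processing notes. Not given in the sources used here: annotation release, strand setting and handling of multi-mapping reads. Exons of Nfkb2 overlap Psd by 299 bases, those of Nfkbib overlap Ccer2 by 314 and Sirt2 by 42, and those of Bcl3 overlap Gm16175 by 161, all on the opposite strand, so without the strand setting their reads cannot be told apart.

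Counts of all 31017 genes were fitted with edgeR 4.0.16 in R 4.3.3 (filterByExpr at 10 counts and 15 in total, TMM scaling, group as the only term, quasi-likelihood F-test). P-values were adjusted by Benjamini-Hochberg over 12158 tested genes, with a threshold of 0.05. CPM use the TMM-scaled totals, fold changes divide KO by control (prior count 0.125, log2 scale), and SE is the absolute log2 fold change over the square root of F. Intervals are 95% and come from SE and the fit's degrees of freedom. Positions and exon lengths are from GENCODE M21 (mm10), promoters from RefSeq.

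Members and gene lists were chosen with earlier results of these data known. From each list, counts are given, and mainly the 4 genes with the smallest adjusted p or those against the list's direction are named. IKK subunits, Map3k14, Traf3, Malt1, Rnf31, Sharpin, Fbxw11, Cyld, Otulin and Tnfrsf1a were named for their roles after their values were seen. Some genes that the lists or the likeness rule name are not reported here. Replicate pairs of a group differed by more than counting noise (chi-square per degree of freedom 2.29 to 4.87), so each library counts as 1 sample. The labels do not say that replicates were separate cultures, so the p-values reflect spread among libraries that may be technical. The test was also run on simulated counts, with far fewer changed genes than were called here. The outcome is not reported here, and no result rests on it. Alternatives were RLE, upper quartile or no scaling, DESeq2 1.42.0, limma-voom (limma 3.58.1), other filters, a minimum fold change, a replicate block and leaving out each library.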

Additional observations from a re-analysis of the deposited data

How the results depend on the processing

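The falls of Nfkbia and Nfkbiz passed in all 15 alternatives, at log2 fold changes of -0.92 to -0.86 and -0.94 to -0.89. The count of members that fell was 4 with upper quartile scaling and without KO replicate 3, where Tnfaip3 passed, 2 with a minimum fold change of 1.5, where Nfkbie did not, and 3 in each other alternative. The single rise, of Rela, was lost (a count of 0) with upper quartile scaling, DESeq2, a filter at a mean of 5 CPM, a minimum fold change of 1.5 and the replicate block, and leaving out 1 library gave 0 to 1. It was lost without KO replicate 2 (edgeR adjusted p = 0.156), KO replicate 3 (0.0541), control replicate 1 (0.0773) or control replicate 2 (0.183). With a minimum fold change of 1.5, 21 target genes fell and 7 rose (32 and 11 without it), and 907 of all tested genes were called, beside 6639. The inhibitor to subunit ratio differed by -0.82 on the log2 scale, and by -0.81 with the longest transcript as length. It differed by -0.99 for Nfkbia over Rela alone, which leaves out the other genes. The median of all tested genes stayed within 0.03 of 0 under every scaling. Same-numbered libraries did not deviate together (correlations of -0.029, -0.003 and -0.064 over genes), and no library correlated best with its own number, so the numbers are not treated as pairs. With the replicate block 6443 genes were called, beside 6639 without it, and Rela was the member whose call changed.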
